A study of Mus musculus with 9 samples.

Results

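The genes described here are 34 genes that encode the protein folding machinery of the endoplasmic reticulum (ER) and the unfolded protein response that controls it. They were chosen by name from what their products are known to do, out of 54532 genes in the deposited table. Earlier results of these data were known when they were chosen. They fall into 6 sensors and regulators, 15 folding factors, 10 factors of ER-associated degradation (ERAD) and 3 components of the translocon. Expression was measured by sequencing polyA RNA from cultured 4T1 cells, a mouse mammary carcinoma line, in 3 groups of 3 libraries each. Control cells received medium. The group labelled Cu_TCPP received Cu-TCPP(Fe)-PEG, which its labels call GSH-consumed, and the group labelled Au_TCPP received Au/Cu-TCPP(Fe)-PEG, which its labels call GSH-consumed with a glucose-like oxidase as well. TCPP is a carboxyphenyl porphyrin, PEG is polyethylene glycol and GSH is glutathione, the main thiol antioxidant of the cell. All cells were 4T1 in high glucose DMEM with serum, and treatment lasted 24 h. The labels used here give no dose. Separate cultures per library are not stated either, and the p-values therefore measure only how these libraries vary, which may be technical.

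Proteins that enter the secretory pathway pass through the translocon into the ER, where chaperones such as BiP (encoded by Hspa5) and oxidoreductases of the protein disulfide isomerase family fold them and glycoproteins are checked by lectins. Molecules that fail to fold are handed to ERAD, a membrane complex that returns them to the cytosol for the proteasome. When unfolded proteins build up, the transmembrane sensors ATF6, IRE1 (encoded by Ern1) and PERK (encoded by Eif2ak3) are released from BiP. PERK lowers translation and raises ATF4, IRE1 splices the Xbp1 mRNA into its active form, and ATF6 is cut in the Golgi by the proteases S1P (encoded by Mbtps1) and S2P (encoded by Mbtps2) to free a transcription factor. Cleaved ATF6 with the factor NF-Y binds the ER stress response element (ERSE) of chaperone genes.

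Because the folding factors are the classical targets of that element, the promoter windows of the 34 genes were searched for it. A window of 300 bases, from 250 before to 50 after the RefSeq start (GRCm38.p6), was held for 28 of the 34 genes; Ero1l and Ero1lb were matched under their current symbols Ero1a and Ero1b. The ERSE letters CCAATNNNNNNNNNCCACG, read on both strands, were present in 39 of 32851 mouse promoter windows (0.119%) and in 9 of the 28 members' windows. Since known targets of the element are among the members, the larger share there is no independent finding. Hsp90b1 held 2 copies. The 10 matches are shown with 10 bases on each side, each on the strand of its gene from 5′ to 3′, and the capitals mark the ERSE match. Where the element lies on the opposite strand it begins with CGTGG in place of CCAAT.
Calr, chr8:84847065-84847103, minus strand: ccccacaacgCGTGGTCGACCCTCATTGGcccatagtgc
Canx, chr11:50325790-50325828, minus strand: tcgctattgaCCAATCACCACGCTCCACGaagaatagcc
Creld2, chr15:88819510-88819548, plus strand: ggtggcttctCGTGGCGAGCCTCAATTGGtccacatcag
Derl3, chr10:75893232-75893270, plus strand: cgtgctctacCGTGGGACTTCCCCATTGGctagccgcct
Ero1lb, chr13:12565672-12565710, plus strand: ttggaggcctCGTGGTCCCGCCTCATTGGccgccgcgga
Hsp90b1, chr10:86705628-86705666, minus strand: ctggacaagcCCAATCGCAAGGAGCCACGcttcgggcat
Hsp90b1, second copy, chr10:86705523-86705561, minus strand: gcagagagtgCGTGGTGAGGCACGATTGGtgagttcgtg
Hspa5, chr2:34772015-34772053, plus strand: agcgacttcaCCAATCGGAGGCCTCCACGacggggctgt
Pdia6, chr12:17266481-17266519, plus strand: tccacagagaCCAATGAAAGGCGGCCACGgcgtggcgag
Syvn1, chr19:6046522-6046560, plus strand: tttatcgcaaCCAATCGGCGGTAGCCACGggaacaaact

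Hspa5 is shown over all 250 bases before its start, since it was the member with the largest rise in both treated groups in the edgeR fit below. With Cu_TCPP Calr was close, at a log2 fold change of 0.819 beside 0.825. With an offset for gene length Calr stood above Hspa5 there, at 0.929 beside 0.916. The capitals mark, in order, a match to the core TGACGTG of the unfolded protein response element (UPRE), which is bound by XBP1 and ATF6, and the ERSE match. The UPRE core was found in 2.01% of all windows and in no other member. The deposited annotation begins Hspa5 upstream of the RefSeq start, at 34771970, so part of this stretch lies within the deposited gene.
Hspa5, chr2:34771840-34772089, plus strand: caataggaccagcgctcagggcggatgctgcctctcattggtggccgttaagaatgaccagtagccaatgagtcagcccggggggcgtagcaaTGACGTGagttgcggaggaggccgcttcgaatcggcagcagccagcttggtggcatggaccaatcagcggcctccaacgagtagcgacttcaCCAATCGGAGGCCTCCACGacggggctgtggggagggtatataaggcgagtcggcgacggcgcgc

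Herpud1 held no ERSE but a match to the shorter ERSE-II, ATTGGNCCACG, which was present in 12 windows (0.0365%). It also held a match to TGATGNAA, the letters of the response element of ATF4 and its partners (CARE), which stood in 3.97% of windows. The capitals mark the matches.
Herpud1, ERSE-II, chr8:94386367-94386397, plus strand: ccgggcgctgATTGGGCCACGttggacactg
Herpud1, CARE, chr8:94386307-94386334, plus strand: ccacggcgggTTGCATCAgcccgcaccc

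The count of genes per library was tested with edgeR's quasi-likelihood test over the 13915 genes with enough counts, with Benjamini-Hochberg adjustment, and a gene was called at an adjusted p under 0.05. Levels are given as CPM, edgeR's usual unit of counts relative to library size, after scaling by TMM (trimmed mean of M-values). Library totals ran from 15477324 to 17494776 counts. Au_TCPP replicate 2 stood apart in its mitochondrial share, 2.37% of counts against 1.09% to 1.47% in the other 8 libraries, and it often lay on the Control side of its group for the members below. Of the 34 members 33 were tested. Derl3, an ERAD factor, was left out at 0 to 0.316 CPM.

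With Cu_TCPP, 11 of the 33 members were higher than Control and 4 were lower, where 19.2% of all genes tested were called higher and 21.2% lower. The members' median log2 fold change was 0.13, beside -0.01 over all genes. With Au_TCPP, 18 members were higher and 8 lower than Control, beside 34.4% and 34.7% of all genes, and the medians were 0.32 and -0.01. Between the materials, 17 members were higher and 8 lower with Au_TCPP than with Cu_TCPP, beside 34.6% and 31.3% of all genes. The share of members called lower thus stood below the share of all genes in each comparison, and the share called higher stood above it. All 3 comparisons draw on the same 9 libraries, and those with Control share its libraries.

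The calls differed by role. They are to be read beside all genes, with 19.2% higher and 21.2% lower with Cu_TCPP, and 34.4% and 34.7% with Au_TCPP. Of the 15 folding factors, 9 rose and 1 fell with Cu_TCPP, and 13 rose and none fell with Au_TCPP, with median log2 fold changes of 0.45 and 1.18. By edgeR 1 more folding factor was lower with Au_TCPP at an unadjusted p under 0.05, and by DESeq2 none was. Of the 6 sensors and regulators, none rose and 2 fell with Cu_TCPP, and 1 rose and 4 fell with Au_TCPP. None of them rose with Cu_TCPP at an unadjusted p under 0.05 in this edgeR fit, or by DESeq2, while Xbp1 was called higher in 3 other edgeR fits. With an offset for gene length these 6 gave 1 higher and 1 lower with Cu_TCPP, and 2 higher and 2 lower with Au_TCPP. With that offset 26.7% of all genes were higher and 17.1% lower with Cu_TCPP, and 35.1% and 31.0% with Au_TCPP. Of the 9 ERAD factors tested, 1 rose and 1 fell with Cu_TCPP, and 3 rose and 4 fell with Au_TCPP. In share of all counts, the folding factors took 0.411% ± 0.00233 (SD, n = 3) in Control, 0.561% ± 0.014 in Cu_TCPP and 1.23% ± 0.148 in Au_TCPP. RNA from a bulk culture cannot tell fewer cells with a transcript from less of it per cell.

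The split of the members under Au_TCPP depended on how libraries were scaled. Scaled by library totals alone, 14 members were called higher and 15 lower than Control, beside 18.9% and 51.0% of all genes, and the median of all genes itself moved to -0.43. In that scaling 12 folding factors were called higher and 2 lower, and 6 of the 9 ERAD factors were lower. Against Cu_TCPP the totals gave 12 members higher and 16 lower, beside 20.3% and 46.9% of all genes, with the median of all genes at -0.33. Changes below are given after TMM, which centres all genes near 0, and a member whose direction with Au_TCPP against Control flipped under totals is named where it is described.

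**Figure D1:**
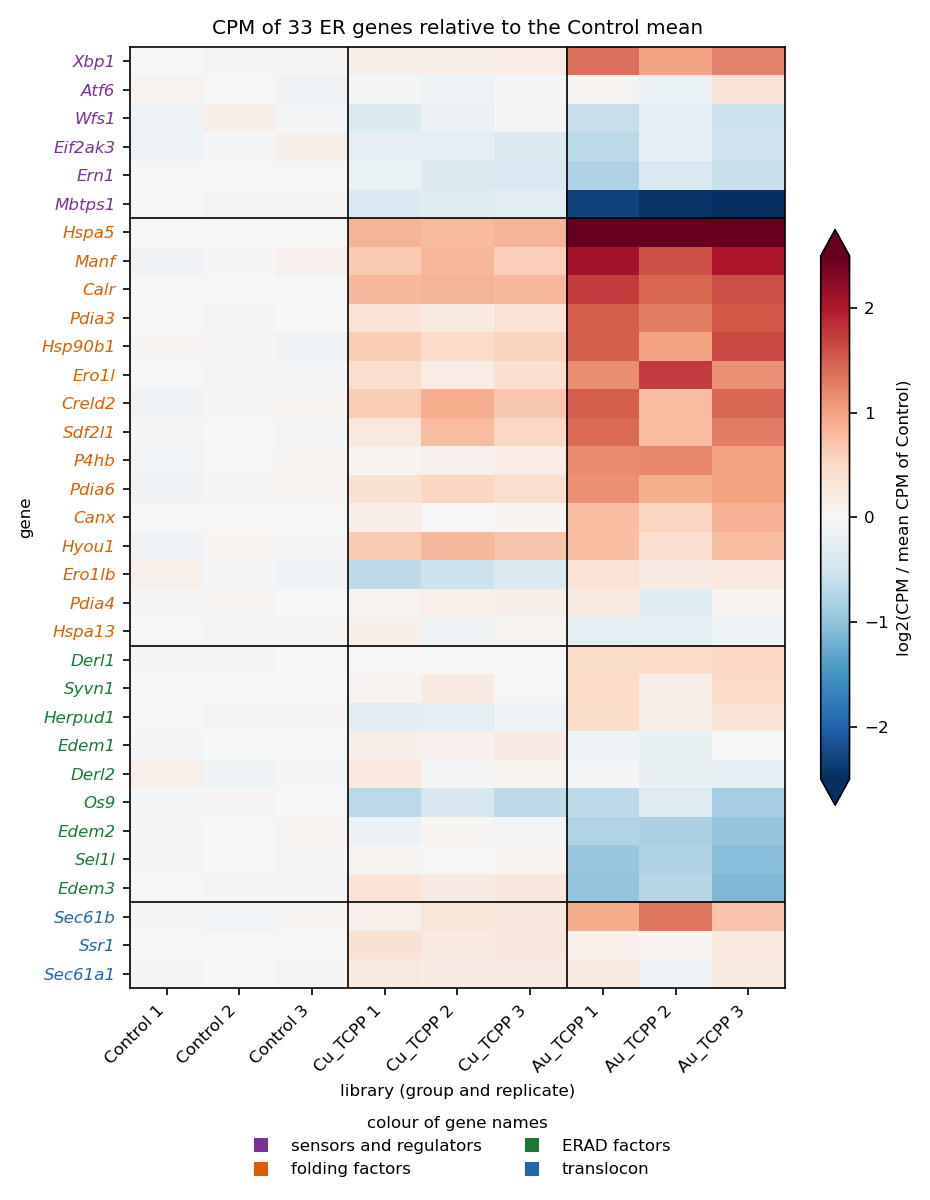
Each cell is the log2 ratio of a library's CPM to the Control mean of that gene (colour scale ends at 2.5 in either direction) for the 33 tested members, ordered by role and by log2 fold change in Au_TCPP; columns are the 9 libraries. The folding factors form a red block in Au_TCPP that is paler in Cu_TCPP, while Mbtps1 is the darkest blue, and Edem2, Edem3 and Sel1l are blue in Au_TCPP alone.

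Among the folding factors the largest change was in Hspa5, which encodes BiP, the HSP70 of the ER lumen. It lies at chr2:34771970-34777547 in mm10, and its exons total 4229 nt. It stood at 933, 941 and 952 CPM in Control, 1694, 1623 and 1690 CPM in Cu_TCPP and 9575, 6152 and 10338 CPM in Au_TCPP. The 3 groups did not overlap, and Au_TCPP replicate 2 was the lowest of its group yet still far above every Cu_TCPP library. The log2 fold change was 0.82 ± 0.14 (SE, adjusted p = 5.23e-04) with Cu_TCPP, and 3.20 ± 0.16 (SE, adjusted p = 9.10e-10) with Au_TCPP, a 9.22-fold rise. The direct difference between the materials was 2.38 ± 0.15 (SE, adjusted p = 9.69e-09). Hspa5 alone took 0.105% ± 0.000744 of counts in Control, 0.18% ± 0.00471 in Cu_TCPP and 0.715% ± 0.148 in Au_TCPP (SD, n = 3), where all 34 members together took 0.607% ± 0.00131, 0.749% ± 0.016 and 1.38% ± 0.144. Per kb of gene length Hspa5 was the member with the highest level in Control, at 223 CPM per kb, ahead of P4hb at 163, Canx at 109 and Pdia3 at 103. In Au_TCPP it reached 2054 CPM per kb, against 357 for P4hb, the next member.

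The lectin chaperones and the ER HSP90 rose with Au_TCPP by less. Calr (chr8:84841850-84846934), which encodes the lectin chaperone calreticulin, stood at 240.1, 244 and 241 CPM in Control, 423, 434 and 422 CPM in Cu_TCPP and 809, 657 and 739 CPM in Au_TCPP. Its groups were tight and separate in Control and Cu_TCPP and wider in Au_TCPP. Its log2 fold change was 0.82 ± 0.09 (SE, adjusted p = 9.46e-06) with Cu_TCPP, and 1.61 ± 0.09 (SE, adjusted p = 1.77e-09) with Au_TCPP. Canx, the membrane-bound lectin chaperone that works on the same glycoproteins, gave 0.07 (adjusted p = 0.586) with Cu_TCPP, where its libraries (574, 510.2 and 529 CPM) overlapped those of Control (515, 511 and 512 CPM). With Au_TCPP it rose to 863, 746 and 940.2 CPM, a log2 fold change of 0.73 (adjusted p = 7.53e-06). Hsp90b1, which encodes the HSP90 of the ER, GRP94, rose from 414, 409 and 377 CPM in Control to 619, 559 and 592 CPM in Cu_TCPP and 1122, 804 and 1262 CPM in Au_TCPP. Its log2 fold changes were 0.56 ± 0.13 (SE, adjusted p = 0.00335), and 1.41 ± 0.13 (SE, adjusted p = 2.61e-07). Its exons share 10.3% of their length with a pseudogene on the opposite strand that had 96.2 counts per library on average against 10654 for Hsp90b1.

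Manf, which encodes a secreted ER protein that binds BiP, had the second largest rise among the folding factors under Au_TCPP. Its libraries stood at 58, 59.9 and 66.6 CPM in Control, 97.3, 109 and 93.3 CPM in Cu_TCPP and 261, 185 and 251 CPM in Au_TCPP. No library of one group lay within another, and Au_TCPP replicate 2 was again the lowest of its group. The log2 fold changes were 0.70 ± 0.12 (SE, adjusted p = 4.13e-04) with Cu_TCPP, and 1.92 ± 0.12 (SE, adjusted p = 6.30e-09) with Au_TCPP. Exons of Dcaf1 on the opposite strand overlap 4.14% of Manf, and the sources used here do not state whether counting used strand. Creld2, an ER stress-inducible protein with disulfide isomerase activity, stood at 18.7, 20.4 and 20.7 CPM in Control, 31, 37.6 and 31.7 CPM in Cu_TCPP and 57.2, 34.2 and 53.7 CPM in Au_TCPP. Au_TCPP replicate 2 lay among the Cu_TCPP libraries. On the log2 scale it changed by 0.74 ± 0.16 (SE, adjusted p = 0.00213) with Cu_TCPP, and 1.28 ± 0.16 (SE, adjusted p = 6.97e-06) with Au_TCPP. Sdf2l1, a partner of BiP in the lumen, rose in both, by 0.54 (adjusted p = 0.018) and 1.18 (adjusted p = 1.57e-05). Its Cu_TCPP call was lost without Control replicate 3 (0.54) or Cu_TCPP replicate 2 (0.41).

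Hyou1, which encodes the large HSP70-like exchange factor of BiP, behaved otherwise. It rose from 80.6, 87.9 and 87.7 CPM in Control to 135, 150.2 and 141 CPM in Cu_TCPP and stood at 145, 116 and 145 CPM in Au_TCPP, so the treated groups overlapped. The log2 fold changes against Control were 0.73 (adjusted p = 4.49e-05), and 0.66 (adjusted p = 2.36e-05). The difference between the materials was -0.07 ± 0.10 (SE, adjusted p = 0.532), and under library totals it was called, at -0.45 (adjusted p = 1.50e-04). Hspa13, an HSP70-like protein of microsomes, was not called against Control, at 0.04 (adjusted p = 0.73) with Cu_TCPP and -0.20 (adjusted p = 0.0567) with Au_TCPP. Under library totals it was called lower with Au_TCPP, at -0.62 (adjusted p = 1.42e-05).

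Of the oxidoreductases, which form and rearrange disulfide bonds, all but Pdia4 rose with Au_TCPP. Pdia3, the partner of calreticulin and calnexin, gave 0.32 (adjusted p = 0.00916) with Cu_TCPP and 1.44 (adjusted p = 4.56e-09) with Au_TCPP. P4hb, which encodes protein disulfide isomerase itself, stood at 446, 465 and 488 CPM in Control and 498, 505 and 534 CPM in Cu_TCPP, where it was not called, at 0.13 (adjusted p = 0.224). In Au_TCPP it rose to 1054, 1074 and 936 CPM, a log2 fold change of 1.13 (adjusted p = 3.29e-08). Pdia6 rose in both, by 0.45 (adjusted p = 0.00106) and 1.02 (adjusted p = 1.45e-07). Pdia4 was called in no comparison: its libraries stood at 70.1, 74.9 and 73.2 CPM in Control, 76.6, 79 and 80.3 CPM in Cu_TCPP and 85.4, 58.8 and 76.5 CPM in Au_TCPP, with log2 fold changes of 0.11 (adjusted p = 0.44) and 0.02 (adjusted p = 0.904). The 3 Au_TCPP libraries of Pdia4 enclosed the whole Control range, and under library totals its Au_TCPP value turned to -0.41 (adjusted p = 0.00135).

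The ER oxidases pass electrons from these isomerases to oxygen. Ero1l, which encodes ERO1 alpha, stood at 261, 266 and 256 CPM in Control, 356, 295 and 348 CPM in Cu_TCPP and 586, 879.8 and 573 CPM in Au_TCPP. Unlike the chaperones, its highest library was Au_TCPP replicate 2. Its log2 fold change was 0.35 (adjusted p = 0.0598) with Cu_TCPP and 1.38 (adjusted p = 8.23e-07) with Au_TCPP. The Cu_TCPP value was called by DESeq2, at 0.38 (adjusted p = 0.0269), with the length offset, at 0.43 (adjusted p = 0.0256), and without Au_TCPP replicate 2, at 0.36 (adjusted p = 2.26e-04). Ero1lb, which encodes ERO1 beta, stood at 24.5, 21.7 and 21.3 CPM in Control, 14.3, 15.4 and 17.5 CPM in Cu_TCPP and 29.1, 26 and 27.1 CPM in Au_TCPP. It fell with Cu_TCPP, at -0.51 (adjusted p = 0.00185), and was called higher with Au_TCPP at 0.29 (adjusted p = 0.0286), a call that was lost without Control replicate 2 (0.23), Control replicate 3 (0.22), Cu_TCPP replicate 2 (0.25), Au_TCPP replicate 1 (0.22) or Au_TCPP replicate 3 (0.26). Under library totals the Au_TCPP value turned to -0.14 (adjusted p = 0.283).

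**Figure D2:**
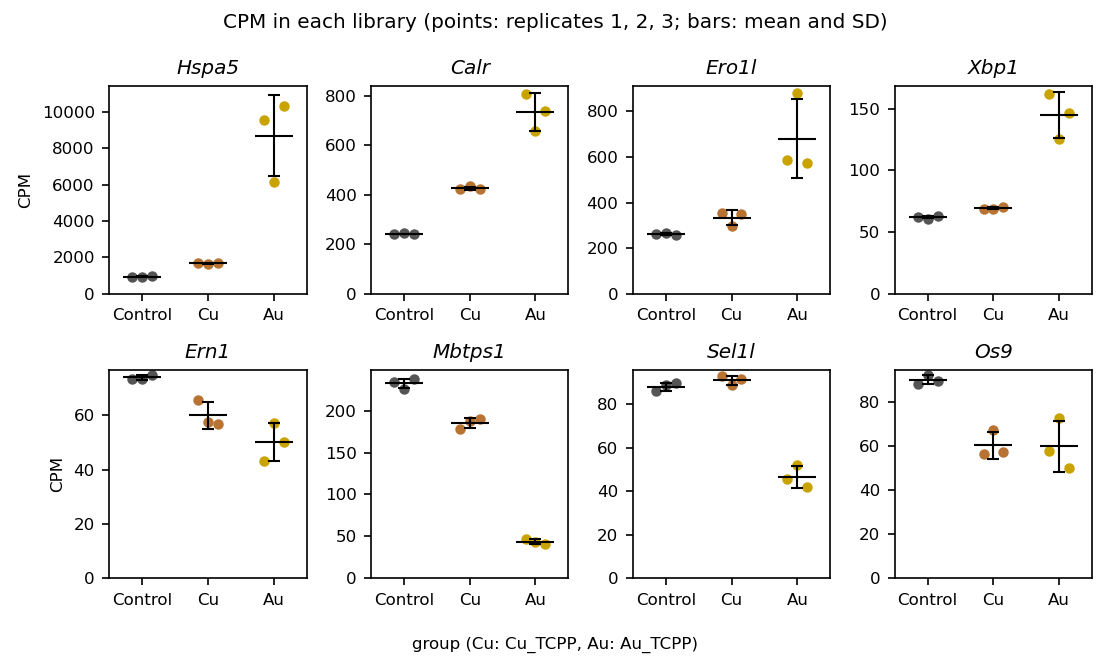
CPM of 8 members in each of the 9 libraries (points, replicates 1 to 3 from left to right), with the group mean and SD as bars and a separate axis from 0 for each gene. Hspa5, Calr and Xbp1 are highest in Au_TCPP, Mbtps1 and Sel1l are lowest there, and Os9 is lower than Control in both treated groups.

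The ERSE matches were not spread evenly over the roles. Of the 8 tested members with a match, 7 were folding factors and the other was Syvn1. All 8 were called higher with Au_TCPP than Control, beside the 34.4% of all genes, with a median log2 fold change of 1.15, while 7 of the 19 tested members with a window and no match were called higher and 8 lower, with a median of -0.09. Under library totals Ero1lb and Syvn1 lost the call and turned in sign. With Cu_TCPP the 8 gave 5 higher and 1 lower (Ero1lb), with a median of 0.51. There the 19 gave 4 higher and 3 lower, with a median of 0.12. Of all genes 19.2% were higher and 21.2% lower with Cu_TCPP. Within the folding factors the contrast was smaller: the 7 with a match had a median of 1.28 with Au_TCPP and all rose, and the 5 with a window and no match (Ero1l, P4hb, Pdia3, Pdia4 and Sdf2l1) had a median of 1.18, and all but Pdia4 rose. With Cu_TCPP these 7 gave 5 higher and 1 lower, with a median of 0.56, and these 5 gave 2 higher and 0 lower, with a median of 0.32. Among the 10 tested genes outside the members that hold the ERSE letters, 3 rose and 3 fell with Au_TCPP, with a median of 0.20. With Cu_TCPP 0 of the 10 rose and 3 fell, with a median of -0.04. These counts describe the letters in the windows, with no test, and occupancy of the promoters was not measured.

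Of the genes of the sensors ATF6, IRE1 and PERK, Ern1 and Eif2ak3 fell with Au_TCPP after TMM, and the value of Atf6 depended on the scaling. With an offset for gene length the falls of Ern1 and Eif2ak3 were not called, at -0.22 (adjusted p = 0.0566) and -0.22 (adjusted p = 0.174). Atf6 (chr1:170704674-170867771), which encodes the sensor whose fragment binds the ERSE, stood at 157, 147 and 140.0 CPM in Control, 145, 135 and 143 CPM in Cu_TCPP and 155, 133 and 184 CPM in Au_TCPP, and the 3 groups overlapped. Its log2 fold changes were -0.07 ± 0.11 (SE, adjusted p = 0.606) with Cu_TCPP, and 0.09 ± 0.11 (SE, adjusted p = 0.479) with Au_TCPP. The second value turned to -0.34 (adjusted p = 0.00281) under library totals, a call lower, and to 0.47 (adjusted p = 7.40e-04) with an offset that removes the trend with gene length, a call higher. Ern1 (chr11:106394650-106487852), which encodes the kinase and RNase IRE1, stood at 73.5, 73.5 and 75 CPM in Control, 65.8, 57.5 and 56.7 CPM in Cu_TCPP and 43.3, 57.2 and 50.3 CPM in Au_TCPP. Every treated library lay below every Control library, while Cu_TCPP and Au_TCPP overlapped. Its log2 fold changes came to -0.30 ± 0.10 (SE, adjusted p = 0.0249) with Cu_TCPP, and -0.56 ± 0.10 (SE, adjusted p = 1.82e-04) with Au_TCPP. The Cu_TCPP call of Ern1 was lost without Control replicate 1 (-0.30), Control replicate 2 (-0.30), Control replicate 3 (-0.28), Cu_TCPP replicate 2 (-0.26) or Cu_TCPP replicate 3 (-0.26). Eif2ak3 (chr6:70844515-70905245), which encodes the kinase PERK, was the tested member with the lowest level per kb, at 3.07 CPM per kb in Control. Its libraries stood at 16.8, 18 and 20.6 CPM in Control, 15.7, 15.6 and 14.5 CPM in Cu_TCPP and 11.5, 16.1 and 12.9 CPM in Au_TCPP. Every treated library lay below Control, and Au_TCPP replicate 2 lay above all 3 Cu_TCPP libraries. On the log2 scale the change was -0.28 ± 0.13 (SE, adjusted p = 0.108) with Cu_TCPP, and -0.45 ± 0.14 (SE, adjusted p = 0.00864) with Au_TCPP. The Cu_TCPP value of Eif2ak3 was called lower with 6 libraries alone, at -0.27 (adjusted p = 0.0319), and without Au_TCPP replicate 2, at -0.27 (adjusted p = 0.0428). Wfs1, which encodes wolframin, an ER membrane protein that restrains ATF6, gave -0.18 (adjusted p = 0.263) and -0.44 (adjusted p = 0.00585).

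Xbp1, the substrate of IRE1 and a target of ATF6, was the sensor or regulator called higher with Au_TCPP; with the offset for gene length Atf6 was called higher too. It lies at chr11:5520659-5525893 in mm10, and its exons total 3248 nt. It stood at 62.4, 60.9 and 63.1 CPM in Control, 68.7, 68.7 and 70.5 CPM in Cu_TCPP and 162, 125 and 147 CPM in Au_TCPP. Cu_TCPP lay just above Control without overlap and Au_TCPP lay far above both. In log2 terms the changes were 0.16 ± 0.09 (SE, adjusted p = 0.185) with Cu_TCPP, and 1.22 ± 0.09 (SE, adjusted p = 3.04e-08) with Au_TCPP. The Cu_TCPP value of Xbp1 was called at 0.27 (adjusted p = 0.0387) with the length offset, 0.16 (adjusted p = 0.0228) with 6 libraries alone and 0.17 (adjusted p = 0.0347) without Au_TCPP replicate 2. A count per gene does not separate spliced from unspliced Xbp1, so IRE1 activity was not measured here.

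Mbtps1 showed the largest fall of any member. It lies at chr8:119508156-119558735 in mm10, and its exons total 10539 nt. It encodes the site-1 protease that makes the first cut in ATF6 and in the sterol regulators SREBP. Its libraries stood at 234, 226 and 238 CPM in Control, 179, 188 and 190.5 CPM in Cu_TCPP and 46.8, 42.6 and 41.2 CPM in Au_TCPP. The 3 Au_TCPP libraries were tight and lay far below all others, and Cu_TCPP lay between them and Control. The log2 fold change was -0.33 ± 0.08 (SE, adjusted p = 0.00456) with Cu_TCPP, and -2.42 ± 0.09 (SE, adjusted p = 2.72e-11) with Au_TCPP, a 5.34-fold fall. The difference between the materials was -2.09 ± 0.08 (SE, adjusted p = 8.48e-11). Mbtps2, the site-2 protease and no member, also fell with Au_TCPP, at -0.91 (adjusted p = 1.87e-07), and gave 0.19 (adjusted p = 0.0758) with Cu_TCPP.

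Of the 9 ERAD factors tested, 33.3% rose and 44.4% fell with Au_TCPP, beside 34.4% and 34.7% of all genes. Under library totals none was called higher and 6 were lower, beside 18.9% and 51.0% of all genes. The calls after TMM were as follows. Edem2, Edem3, Sel1l and Os9 fell, and Derl1, Syvn1 and Herpud1 rose. Edem3 (chr1:151755371-151822051), an ER mannosidase that marks glycoproteins for degradation, stood at 35.6, 36.1 and 34.3 CPM in Control, 44.9, 40.8 and 43 CPM in Cu_TCPP and 17.9, 21.6 and 16.2 CPM in Au_TCPP. It was above Control in every Cu_TCPP library and below it in every Au_TCPP library. The changes on the log2 scale were 0.28 ± 0.10 (SE, adjusted p = 0.0401) with Cu_TCPP, and -0.93 ± 0.11 (SE, adjusted p = 2.28e-06) with Au_TCPP. The rise with Cu_TCPP was lost as a call without Control replicate 1 (0.29), Control replicate 2 (0.31), Control replicate 3 (0.27), Cu_TCPP replicate 1 (0.25) or Cu_TCPP replicate 3 (0.28). Edem2, which makes the first mannose cut, stood at 57, 57.9 and 60.9 CPM in Control, 52.9, 60.4 and 55.6 CPM in Cu_TCPP and 35, 33.4 and 30.1 CPM in Au_TCPP. Its Control and Cu_TCPP libraries overlapped, and its fall was in Au_TCPP, at -0.83 ± 0.09 (SE, adjusted p = 1.06e-06). Edem1 was not called against Control, at 0.15 (adjusted p = 0.137) and -0.09 (adjusted p = 0.305).

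Sel1l (chr12:91806043-91849157), the scaffold that holds the HRD1 ubiquitin ligase together, stood at 85.9, 88.6 and 89.5 CPM in Control, 92.7, 88.8 and 91.3 CPM in Cu_TCPP and 45.4, 51.8 and 42 CPM in Au_TCPP. Control and Cu_TCPP overlapped and Au_TCPP lay apart below them. Its log2 fold change was 0.05 ± 0.08 (SE, adjusted p = 0.679) with Cu_TCPP, and -0.92 ± 0.09 (SE, adjusted p = 2.67e-07) with Au_TCPP. Syvn1, which encodes HRD1 itself, moved against its scaffold with Au_TCPP, at 0.37 (adjusted p = 0.00348), and gave 0.10 (adjusted p = 0.419) with Cu_TCPP. Under library totals its Au_TCPP value turned to -0.05 (adjusted p = 0.608), and that against Cu_TCPP to -0.11 (adjusted p = 0.291). Os9, the lectin that delivers substrates to this complex, stood at 88.4, 92.3 and 89.8 CPM in Control, 56.4, 67.4 and 57.2 CPM in Cu_TCPP and 57.6, 72.6 and 49.9 CPM in Au_TCPP. It was the ERAD factor that fell in both groups, by log2 fold changes of -0.58 ± 0.12 (SE, adjusted p = 0.00125), and -0.59 ± 0.12 (SE, adjusted p = 4.57e-04). The treated groups overlapped.

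Derl1, a candidate channel protein of the ERAD complex, stood at 340.0, 328 and 333 CPM in Control and 457, 463 and 479 CPM in Au_TCPP, a log2 fold change of 0.48 (adjusted p = 5.28e-05), and gave -0.01 (adjusted p = 0.946) with Cu_TCPP. Under library totals its Au_TCPP value was 0.06 (adjusted p = 0.443). Herpud1, a stress-inducible adaptor of the HRD1 complex, stood at 82.5, 79.8 and 84.3 CPM in Control, 67.4, 69.4 and 75 CPM in Cu_TCPP and 114, 92 and 102 CPM in Au_TCPP. Every Cu_TCPP library lay below Control and every Au_TCPP library above it. The log2 fold changes were -0.22 ± 0.09 (SE, adjusted p = 0.0599) with Cu_TCPP, and 0.32 ± 0.09 (SE, adjusted p = 0.00485) with Au_TCPP, which turned to -0.11 (adjusted p = 0.241) under library totals. The Cu_TCPP value of Herpud1 was called lower under library totals, at -0.27 (adjusted p = 0.0141). It was also called with 6 libraries alone, at -0.21 (adjusted p = 0.00722), and without Au_TCPP replicate 2, at -0.21 (adjusted p = 0.0143). Derl2 was not called against Control, at 0.12 (adjusted p = 0.361) and -0.15 (adjusted p = 0.18). It shares 2.87% of its exon length with Mis12 on the opposite strand, and Syvn1 shares 1.87% with Mrpl49.

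In the translocon, 1 of the 3 members was called higher with each material, beside 19.2% of all genes with Cu_TCPP and 34.4% with Au_TCPP. Sec61b, the small beta subunit of the channel, stood at 40.3, 37.8 and 41 CPM in Control, 43.2, 48.7 and 48.5 CPM in Cu_TCPP and 75.7, 98.8 and 65.3 CPM in Au_TCPP. Its highest library was Au_TCPP replicate 2. On the log2 scale the change was 0.24 (adjusted p = 0.145) with Cu_TCPP and 1.01 ± 0.12 (SE, adjusted p = 4.63e-06) with Au_TCPP. Ssr1, a subunit of the translocon-associated protein complex, stood at 185, 187 and 187 CPM in Control, 242, 221 and 228 CPM in Cu_TCPP and 205, 195 and 223 CPM in Au_TCPP. It was called with Cu_TCPP, at 0.31 ± 0.08 (SE, adjusted p = 0.00842), and not with Au_TCPP, at 0.16 (adjusted p = 0.105). The direct difference between the materials for Ssr1 was -0.15 (adjusted p = 0.12). Sec61a1, which forms the pore, was not called in either group, at 0.22 (adjusted p = 0.0722) and 0.15 (adjusted p = 0.164). Under library totals the Au_TCPP values of Sec61a1 and Ssr1 turned to -0.28 (adjusted p = 0.00426), and -0.27 (adjusted p = 0.00322). With the length offset both were called higher with Au_TCPP, at 0.42 (adjusted p = 9.56e-04) and 0.58 (adjusted p = 1.58e-05). Without Au_TCPP replicate 2 they were also called higher, at 0.23 (adjusted p = 0.00669) and 0.18 (adjusted p = 0.0347). In both of these fits all 3 translocon members were called higher with each material. With the length offset 26.7% of all genes were higher with Cu_TCPP and 35.1% with Au_TCPP. Without Au_TCPP replicate 2 these shares were 25.5% and 34.1%.

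**Figure D3:**
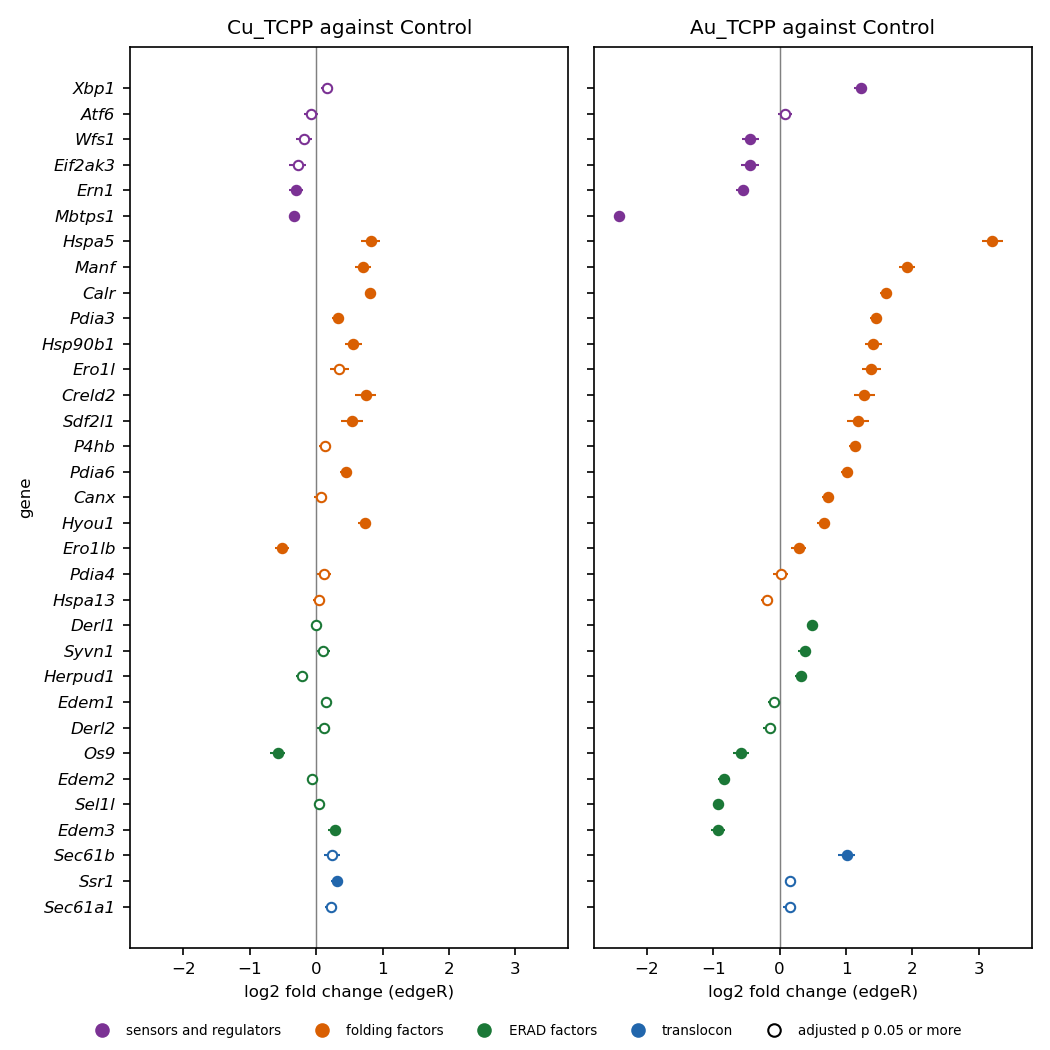
Log2 fold change against Control with its standard error (horizontal bars, in places shorter than the point) for the 33 tested members by role; filled points have an edgeR adjusted p under 0.05. Most folding factors lie right of 0 in both panels and further right in Au_TCPP, up to 3.20 for Hspa5, and Mbtps1 lies furthest left in Au_TCPP at -2.42.

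Set against each other, the materials gave a call for 25 of the 33 members. Of the 13915 genes tested 9176 were called, 34.6% higher and 31.3% lower, and the counts by role are to be read beside these shares. Against Cu_TCPP, Au_TCPP gave 12 folding factors higher and 1 lower, with a median log2 difference of 0.79. Hspa5 (2.38), Manf (1.22) and Pdia3 (1.12) had the largest differences in that direction. Ero1lb differed by 0.80 (adjusted p = 1.51e-05). The folding factor called lower was Hspa13, at -0.24 (adjusted p = 0.0257), a call that was lost without Cu_TCPP replicate 1 (-0.23) or Cu_TCPP replicate 3 (-0.23). Of the sensors, Xbp1 was higher (1.06), while Mbtps1 at -2.09 and Ern1 at -0.26 (adjusted p = 0.0377) were lower. The call of Ern1 was lost without Cu_TCPP replicate 1 (-0.23) or Au_TCPP replicate 1 (-0.20). Of the ERAD factors, Herpud1, Derl1 and Syvn1 were higher, and Edem1, Edem2, Edem3, Sel1l and Derl2 were lower. The calls of Syvn1 were lost without Control replicate 1 (0.22), Control replicate 2 (0.23), Control replicate 3 (0.23), Cu_TCPP replicate 1 (0.21), Cu_TCPP replicate 3 (0.22), Au_TCPP replicate 1 (0.18) or Au_TCPP replicate 3 (0.17). Those of Edem1 were lost without Cu_TCPP replicate 3 (-0.22), those of Derl2 without Cu_TCPP replicate 1 (-0.23), and the call of the folding factor Creld2 without Cu_TCPP replicate 1 (0.44), Au_TCPP replicate 1 (0.35) or Au_TCPP replicate 3 (0.40). The 8 members with no call between the materials included Hyou1, Pdia4, Os9 and Atf6, and a p that misses the threshold does not show equal levels. Under library totals, where 46.9% of all genes were lower, all 8 were called lower. There Hyou1 gave -0.45 (adjusted p = 1.50e-04), Pdia4 -0.48 (adjusted p = 4.71e-04), Os9 -0.37 (adjusted p = 0.0319) and Atf6 -0.22 (adjusted p = 0.0373). Atf6 was called higher, and Eif2ak3 and Wfs1 lower, without Au_TCPP replicate 2, at 0.23 (adjusted p = 0.0154), -0.36 (adjusted p = 0.0204) and -0.41 (adjusted p = 0.00519). Under library totals the calls of Creld2, Sdf2l1, Herpud1, Syvn1 and Derl1 were lost, and with the length offset those of Ern1, Creld2, Sdf2l1, Hspa13, Edem1 and Derl2. For Os9 the difference was -0.01 ± 0.12 (SE, adjusted p = 0.965).

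Fold change moved with gene length in Au_TCPP. Over all 13915 genes the median log2 fold change against Control was 0.49 for genes up to 2000 nt, 0.10 from 2000 to 4000 nt, -0.19 from 4000 to 8000 nt and -0.45 over 8000 nt. The members gave medians of 1.18 (3 genes), 0.75 (12 genes), 0.33 (12 genes) and -0.36 (6 genes) in the same classes. Spearman's rho between log2 fold change and length was -0.48 across the 33 members and -0.30 across all genes, and in Cu_TCPP it was -0.25 and -0.01. Genes share libraries and are not independent replicates, so no p is given. The sensors had a median length of 7099.5 nt, against 3745 nt for the folding factors and 3861 nt for all tested genes, and Mbtps1 at 10539 nt was the longest member. With an offset that removes the trend with length in each library, Hspa5 gave 3.30, Xbp1 1.19, Mbtps1 -1.99, Sel1l -0.57 and Edem3 -0.67, all still called. Against Control in Au_TCPP the calls of 3 members were lost there, with Ern1 at -0.22 (adjusted p = 0.0566), Eif2ak3 at -0.22 (adjusted p = 0.174), and Herpud1 at 0.16 (adjusted p = 0.137). Atf6, Sec61a1 and Ssr1 gained a call, all higher, so that 20 members were higher and 6 lower, beside 35.1% and 31.0% of all genes. With Cu_TCPP the fall of Ern1 was lost, at -0.22 (adjusted p = 0.0797), while Xbp1, P4hb, Ero1l, Edem1, Sec61a1 and Sec61b gained a call, all higher, which gave 17 higher and 3 lower beside 26.7% and 17.1% of all genes. Between the materials the calls of Ern1 (-0.0047), Creld2 (0.13), Sdf2l1 (0.20), Hspa13 (-0.045), Edem1 (-0.072) and Derl2 (-0.020) were lost, with adjusted p from 0.323 to 0.97. Atf6 at 0.45 (adjusted p = 0.001) was called higher there, and Wfs1 at -0.32 (adjusted p = 0.0317) and Pdia4 at -0.35 (adjusted p = 0.0188) lower. The part of gene length in these results was not otherwise tested.

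**Figure D4:**
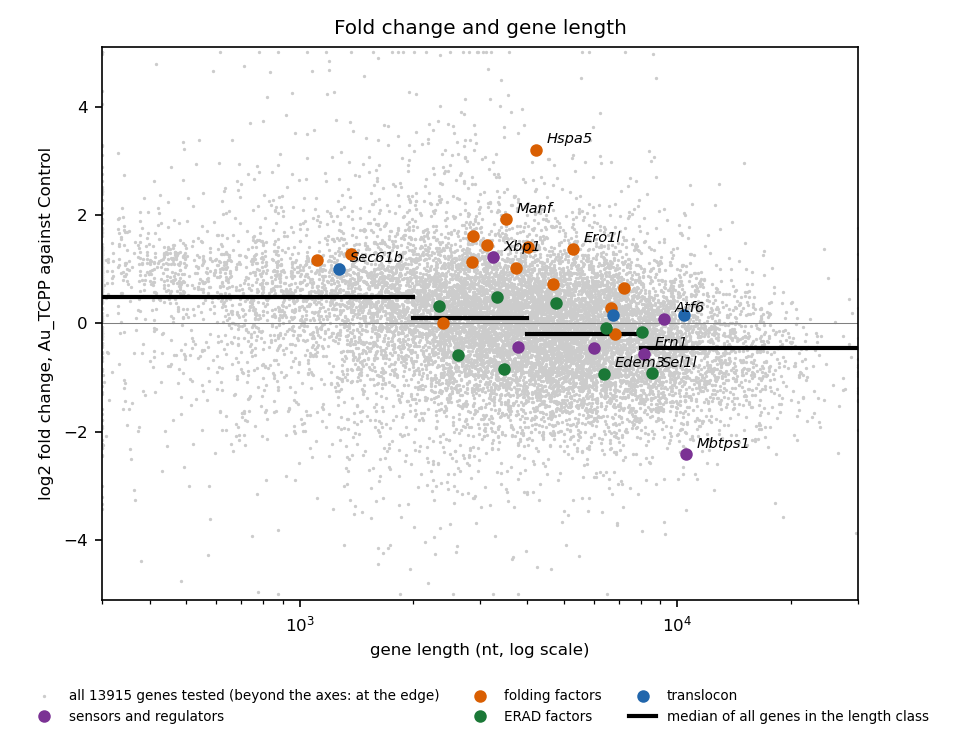
Log2 fold change of Au_TCPP against Control by gene length (log axis), for the members by role and all 13915 tested genes in grey; black lines are the medians of all genes in 4 length classes, from 0.49 for the shortest to -0.45 for the longest. Hspa5 and Manf lie far above the line of their class and Mbtps1 far below its own, while Ern1 lies near it.

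Other genes of the ER were counted from lists of the same pathways. Counts after TMM are to be read beside 19.2% of all genes higher and 21.2% lower with Cu_TCPP, and 34.4% and 34.7% with Au_TCPP. Brackets hold the Au_TCPP counts under library totals, to be read beside 18.9% of all genes higher and 51.0% lower. Of 12 further ER HSP40s and exchange factors, 2 rose and 4 fell with Cu_TCPP and 4 rose and 1 fell with Au_TCPP (3 and 6). Dnajb9, which encodes the BiP co-chaperone ERdj4, stood at 13.1, 14.5 and 12.2 CPM in Control, 11, 9.34 and 8.7 CPM in Cu_TCPP and 162, 157 and 181 CPM in Au_TCPP: it fell with Cu_TCPP, at -0.46 (adjusted p = 0.00572), and rose with Au_TCPP by 3.65 (adjusted p = 5.40e-12). Dnajb11, another BiP co-chaperone, rose in both, by 0.58 and 1.24. Of 18 further isomerase family genes, 4 rose and 4 fell with Cu_TCPP and 6 rose and 2 fell with Au_TCPP (2 and 6). With Au_TCPP the share that rose was 33.3% in this list and in the HSP40 list, near that of all genes. Erp44 of the isomerase family, which retains ERO1 in the ER, gave 0.12 (adjusted p = 0.241) and 1.29 (adjusted p = 3.69e-09). Of 9 tested genes of glucose trimming and the lectin cycle, 2 rose and 1 fell with Cu_TCPP and 2 rose and 6 fell with Au_TCPP (1 and 7). Mogs, which encodes glucosidase I, rose with Cu_TCPP by 0.71 (adjusted p = 8.56e-05) and fell with Au_TCPP, at -1.47 (adjusted p = 2.59e-08).

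Calls of the machinery of entry and glycosylation were mostly higher. The counts here are to be read beside 19.2% of all genes higher and 21.2% lower with Cu_TCPP. With Au_TCPP those shares were 34.4% and 34.7%, and under library totals 18.9% and 51.0%. Of the 12 oligosaccharyltransferase genes, 5 rose and none fell with Cu_TCPP, and 11 rose and 1 fell with Au_TCPP (5 and 1 under library totals), with a median log2 fold change of 0.64. No oligosaccharyltransferase gene was lower with Cu_TCPP at an unadjusted p under 0.05 in edgeR, or by DESeq2. Ost4, its smallest subunit, rose by 0.73 and 1.26. Of 20 further genes of the translocon, signal recognition particle and signal peptidase, 9 rose and 1 fell with Cu_TCPP and 17 rose and 1 fell with Au_TCPP (13 and 3), led by Sec61g at 1.67 (adjusted p = 1.17e-08). Of 26 further ERAD genes, 11 rose and 6 fell with Cu_TCPP and 12 rose and 5 fell with Au_TCPP (9 and 13). Ubxn4, which tethers p97 to the ER, and Ube2g2, a ubiquitin-conjugating enzyme, had Au_TCPP values of 1.80 and 1.79. Of 19 genes of COPII transport and retrieval to the ER, 10 rose and 1 fell with Cu_TCPP and 12 rose and 4 fell with Au_TCPP (8 and 8), among them the KDEL receptor Kdelr3, at 0.46 and 1.47. Of 11 genes of ER calcium, 2 rose and 4 fell with Cu_TCPP and 6 rose and 5 fell with Au_TCPP (1 and 5). Itpr3, an IP3 receptor, fell in both, at -0.53 and -1.54.

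Of 11 outputs of PERK and ATF4, 10 were higher with Au_TCPP than with Cu_TCPP and the other was not called (10 higher and 1 lower under library totals). Their median log2 difference was 1.76. Of all genes 34.6% were higher and 31.3% lower there, and 20.3% and 46.9% under library totals. Against Control, 1 output rose and 4 fell with Cu_TCPP (2 and 6 in the fit without Au_TCPP replicate 2), with a median of -0.23. Of all genes 19.2% were higher and 21.2% lower there (25.5% and 25.0% in that fit). With Au_TCPP 10 outputs rose and none fell (9 and 1 under library totals), with a median of 1.31. Of all genes 34.4% were higher and 34.7% lower there (18.9% and 51.0% under library totals). None of the 11 outputs was lower with Au_TCPP than Control at an unadjusted p under 0.05 in edgeR, or by DESeq2. Ddit3, which encodes the transcription factor CHOP, stood at 27.2, 30.1 and 30.8 CPM in Control, 9.87, 12.2 and 9.6 CPM in Cu_TCPP and 362, 372 and 367 CPM in Au_TCPP. All Cu_TCPP libraries lay below Control and all Au_TCPP libraries far above it, with log2 fold changes of -1.47 ± 0.10 (SE, adjusted p = 3.21e-07), and 3.64 ± 0.10 (SE, adjusted p = 3.25e-12). Ddit3 overlaps Mars on the opposite strand, so its reads are uncertain where strand was not used. Ppp1r15a, which encodes the phosphatase subunit GADD34, gave -0.23 (adjusted p = 0.24) and 5.11 (adjusted p = 5.40e-12). Atf3 gave -0.43 (adjusted p = 0.091) and 6.79 (adjusted p = 2.25e-11). Of 14 further transducers, 6 rose and 1 fell with Cu_TCPP and 6 rose and 4 fell with Au_TCPP (4 and 8). Eif2s1, which encodes the PERK substrate eIF2 alpha, rose by 0.63 and 1.15. Atf4, named after its values were seen, rose by 0.41 (adjusted p = 0.00769) and 1.02 (adjusted p = 9.46e-07). Of 4 tested mRNAs known as substrates of IRE1-dependent decay, none rose and 3 fell in each group by edgeR and by DESeq2. Of all genes, 21.2% and 34.7% were called lower by edgeR. Among the 3, Scara3 gave -0.56 and -1.53. The other, Bloc1s1, was not called and went the other way, at 0.18 with Cu_TCPP and 1.32 with Au_TCPP. At an unadjusted p under 0.05, 0 and 1 of the 4 were higher. The cytosolic heat shock genes, which belong to another compartment, rose in 9 of 13 cases with Cu_TCPP and in 13 of 13 with Au_TCPP. Beside them 19.2% and 34.4% of all genes were higher. The heat shock medians were 0.62 and 3.51, against 0.45 and 1.18 for the ER folding factors.

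**Figure D5:**
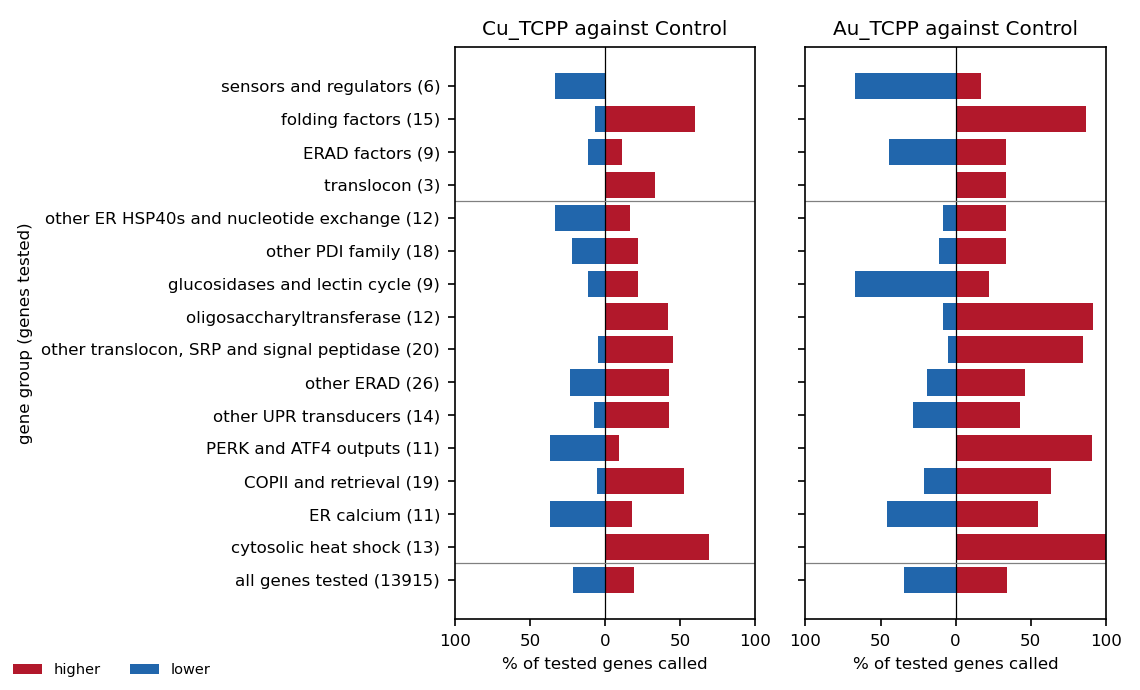
Share of tested genes called higher (red, right) or lower (blue, left) against Control in each gene group, with the number tested in brackets, the members' 4 roles on top and all genes tested at the bottom. Folding factors, oligosaccharyltransferase, other translocon and heat shock genes stand to the right in Au_TCPP beyond the 34.4% of all genes, and PERK and ATF4 outputs are mostly lower or not called in Cu_TCPP and mostly higher in Au_TCPP.

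Markers of the cells were read beside these results. The summed level of 8 epithelial markers was 2806 to 3046 CPM in Control, 2729 to 3054 CPM in Cu_TCPP and 4141 to 5032 CPM in Au_TCPP. Of the 6 tested, 1 rose and 4 fell with Cu_TCPP, and all 6 rose with Au_TCPP (3 higher and 1 lower under library totals). Of all genes 19.2% were higher and 21.2% lower with Cu_TCPP. With Au_TCPP the shares of all genes were 34.4% and 34.7% (18.9% and 51.0% under library totals). The 8 macrophage markers summed to 40.5 to 43.8 CPM, 27.2 to 31.0 CPM and 79.6 to 98.1 CPM in the same order, with Adgre1 and C1qa at 0 in every library. The 8 fibroblast markers (Col3a1, Pdgfrb and Lum at 0) and 6 endothelial markers (Emcn at 0) summed to at most 40.7 and 46.0 CPM. The part of the epithelial and macrophage markers in the members' changes with Au_TCPP was not tested.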

How the data were processed

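RNA of 9 libraries of 4T1 cells (3 groups of 3, grouped by the labels) was sequenced after preparation with a single-cell RNA library kit from bulk cells, per the labels' protocols. The authors deposited whole-number read counts and FPKM per gene in 1 table of 54532 genes. Bowtie 0.12.9, Cufflinks 2.1.1, HTSeq and the build mm10 are named in the submitters' processing notes. The sources used here do not state whether counting used strand. All members had the same coordinates in GENCODE M21. From the deposited counts, edgeR 4.0.16 (R 4.3.3) fitted all 9 libraries with 1 mean per group (TMM, filterByExpr, robust quasi-likelihood), and p-values were adjusted by Benjamini-Hochberg over 13915 genes. SEs are the log2 fold change divided by the square root of F. Replicates of each group differed beyond sampling noise (chi-square per degree of freedom 2.62 to 40.6). The method was run on simulated counts in which 200 genes were changed, for Cu_TCPP against Control alone. That simulation cannot speak to the scaling with Au_TCPP, where 9611 of 13915 genes were called against Control. Values in every library were printed for, in each role, the called members with the 3 largest changes in each comparison with Control, and for Ern1, Atf6, Eif2ak3, Xbp1 and Hspa5, and for further members where the groups' overlap is described; of each other list, for at most 3 called genes with the smallest p. Members and lists were chosen with earlier results of these data known. Alternatives were DESeq2 1.42.0 and its size factors, library totals, 2 count filters, 6 libraries, a replicate block, length offsets, limma 3.58.1 on log2 of the authors' deposited FPKM plus 1 or 0.1, and leaving out each library. Promoter windows are RefSeq's (GRCm38.p6). One further list of cell markers is not reported here.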

Additional observations from a re-analysis of the deposited data

How the results depend on the processing

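Of the members called in the comparisons of Cu_TCPP with Control, Au_TCPP with Control and Au_TCPP with Cu_TCPP, 12 of 15, 20 of 26 and 16 of 25 kept their direction and their call under every alternative run. With 6 libraries fitted alone, 23 members were called in Cu_TCPP against Control, 17 of them higher. In that fit 27.4% of all genes were higher and 27.0% lower. With length offsets 17 members were higher, beside 26.7% of all genes. Library totals called 15 members lower in Au_TCPP against Control and 16 in Au_TCPP against Cu_TCPP, beside 51.0% and 46.9% of all genes. Leaving out 1 library gave 12 to 22 called members with Cu_TCPP and 25 to 28 with Au_TCPP. Over all genes those fits called 4226 of 14237 to 7179 of 14232 with Cu_TCPP. With Au_TCPP they called 8859 of 14231 to 10109 of 14232. Same-numbered libraries showed no shared deviation (correlations -0.0846 to 0.0897), which cannot show whether they were prepared together. The replicate block left the counts at 11 higher and 4 lower, 18 and 8, and 17 and 8. Of all 13915 genes it called 5508, 9505 and 9059. Signs turned as follows, mostly for genes without a call above. Under library totals the values became: Cu_TCPP against Control, Hspa13 -0.0078, Sel1l -0.0016; Au_TCPP against Control, Atf6 -0.34, Ero1lb -0.14, Herpud1 -0.11, Pdia4 -0.41, Sec61a1 -0.28, Ssr1 -0.27, Syvn1 -0.053; Au_TCPP against Cu_TCPP, Atf6 -0.22, Sdf4 -0.028, Syvn1 -0.11. With length offsets they became: Cu_TCPP against Control, Atf6 0.013, Derl1 0.10, Edem2 0.044; Au_TCPP against Control, Derl2 0.18, Edem1 0.16, Hspa13 0.080, Pdgfra 0.088, Pdia4 -0.13; Au_TCPP against Cu_TCPP, Hyou1 0.14, Sec61a1 0.12, Ssr1 0.18. For Derl1 in Cu_TCPP against Control, size factors gave 0.022, DESeq2 0.022, no filter 0.018, and limma 0.028 and 0.028. For Pdia4 in Au_TCPP against Control, no filter gave -0.032, the filter at 1 CPM -0.014, and limma -0.0071 and -0.0079. Leaving out 1 library gave Derl1 -0.014 to 0.012 and Hspa13 -0.0000 to 0.12 in Cu_TCPP against Control, Atf6 -0.074 to 0.17 and Pdia4 -0.13 to 0.13 in Au_TCPP against Control, and Atf6 -0.012 to 0.23, Os9 -0.20 to 0.065 and Pdia4 -0.25 to 0.0067 between the materials. The cause of these changes was not tested. Depth limited Derl3, at 0 to 0.316 CPM.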
